A study of Mus musculus with 6 samples.

Results

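MiR-142a is described here through its 2 mature arms, mmu-miR-142a-5p and mmu-miR-142a-3p, which were found by name among the 1900 mouse miRNA probes of the array. Both arms read above the blank spots on every array, and neither differed detectably between diabetic and control cells. The cells were adherent bone marrow-derived progenitor cells of adult male db/db mice, homozygous for a leptin receptor mutation that leads to obesity with type 2 diabetes, and of db/+ control mice from the same litters, which carry the mutation on a single allele. Marrow mononuclear cells of both groups were kept in endothelial growth medium for 4 days, freed of non-adherent cells by washing and grown for 3 more days. Each group had 3 arrays, each hybridised with 1 sample. Adherence was the only selection the labels give. Whether the samples of a group were separate animals is not stated there, and p-values cover no more than the spread over these samples.

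A miRNA gene is transcribed as a hairpin, and either arm of its stem can be loaded into Argonaute to repress mRNAs that pair with bases 2 to 8, the seed. Mir142 is known for its activity in nearly all blood cell lineages and its near absence from other cells, so that target sites for miR-142-3p are built into gene therapy vectors to silence them in blood cells. In mice its loss impairs lymphocytes, dendritic cells, mast cells and megakaryocytes. Cultures of adherent marrow cells in endothelial medium can hold macrophages and other blood cells beside endothelial and stromal cells, which makes miR-142a a marker of what adhered.

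The gene lies on mouse chromosome 11, at chr11:87756864-87756927 on the plus strand of GRCm38.p6, between the protein-coding genes Supt4a and Tspoap1 and inside neither. The 64-base hairpin is shown because both arms come from it, with the arms in capitals, and the mature sequences are shown with their seeds in capitals. The antisense product miR-142b is added because it serves as a check of probe specificity. It is encoded on the minus strand of the same place.
Mir142 hairpin: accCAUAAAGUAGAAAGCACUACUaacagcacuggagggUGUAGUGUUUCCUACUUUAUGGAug
mmu-miR-142a-5p: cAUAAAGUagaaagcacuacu
mmu-miR-142a-3p: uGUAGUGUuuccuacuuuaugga
mmu-miR-142b: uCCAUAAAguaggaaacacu

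The arms have different seeds and no other probe on the array shares either of them, so the seed family of each arm had 1 probe. The reverse complement of miR-142b is the stretch of miR-142a-3p that begins at base 4, over all 20 bases. Aligned with the 5p arm, miR-142b overlaps it by 18 bases, of which 16 are the same. The changes are A11G and G14A, counted from 1 at the 5′ end of the 5p arm with the 5p base first. Both arms are poor in G and C, with 33.3% in the 5p arm and 34.8% in the 3p arm, where the median over the tested probes was 54.5%.

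The 5p probe had a scanner signal of 799, 1039 and 2042 on the db/db arrays, against 659, 1185 and 541 on the db/+ arrays. The arrays differed in brightness and in their blank spots, whose median lay between 39.1 and 97.2, so each value was also set against the blanks of its own array. The 5p signal was 18.1, 18.4 and 28.0 times the blank median on the db/db arrays, and 6.77, 18.5 and 13.8 times on the db/+ arrays. Replicate 3 stood highest among db/db cells and replicate 1 lowest among db/+ cells, and the groups overlapped.

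The 3p probe had a scanner signal of 208, 333 and 945 on the db/db arrays, against 153, 470 and 106 on the db/+ arrays. These were 4.73, 5.90 and 12.9 times the blank median in db/db cells and 1.57, 7.36 and 2.72 times in db/+ cells. The same 2 arrays were at the ends, and the groups overlapped again. A probe was taken as detected on an array where it read above the 95th percentile of the blanks, of which there were 4 spots. By that rule both arms were detected on 6 of 6 arrays, and above 2 times the blank median the 3p arm was detected on 5, since db/+ replicate 1 fell short.

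MiR-142b read between 0.501 and 1.13 times the blank median and passed the detection rule on 2 of 6 arrays. These were db/db replicate 1 and db/+ replicate 3, where 1855 and 1701 of the 1900 probes passed. On the other arrays between 751 and 1125 passed, so the rule set few probes apart from the blanks on those 2 arrays. The miR-142b probe, for a sequence that shares 16 of 18 aligned bases with the 5p arm, stayed near the blanks on arrays where the 5p probe read up to 28.0 times the blanks. The paired spots of the 5p and 3p arms differed by at most 1.28-fold on any array, for the 3p arm on db/+ replicate 2, and by 1.00-fold at the least.

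**Figure D1:**
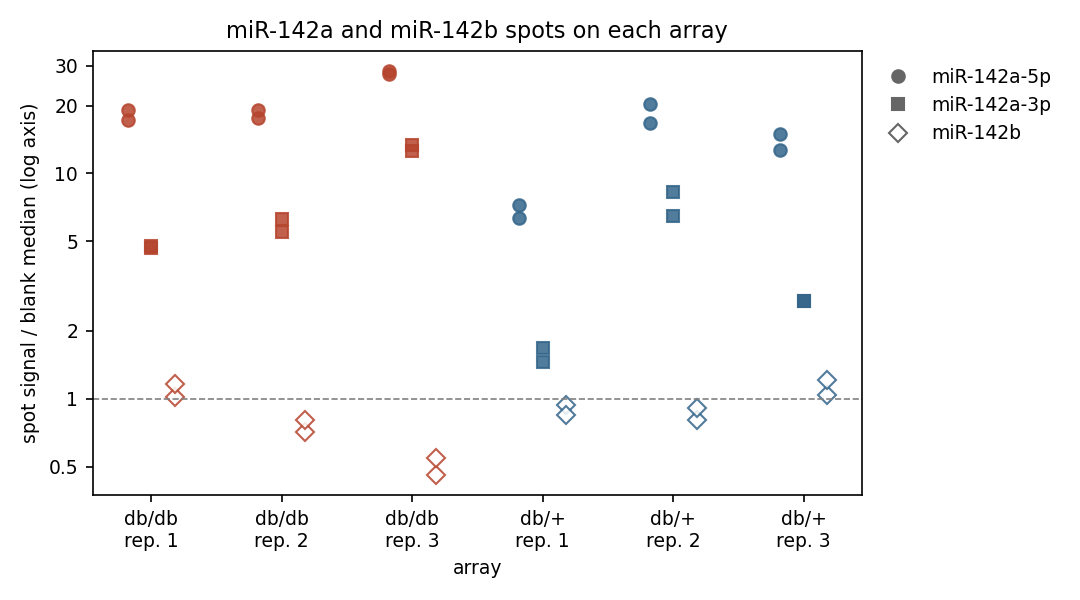
Signal of each of the 2 spots of miR-142a-5p, miR-142a-3p and miR-142b on each array, divided by the median of the blank spots of that array (log axis; dashed line, 1 times the blanks). The 5p probe averaged from 6.77 to 28.0 times the blanks and the 3p probe from 1.57 to 12.9 times, while miR-142b lay between 0.501 and 1.13 times.

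To ask whether diabetic cells differ in miR-142a, the signals were background-corrected, quantile-normalized and compared on the log2 scale with limma over all probes detected on at least 3 arrays. The 5p arm had normalized log2 intensities of 10.10, 9.80 and 10.84 in db/db cells, against 8.72, 9.78 and 10.21 in db/+ cells. It averaged 10.25 ± 0.54 in db/db and 9.57 ± 0.77 in db/+ cells (SD, n = 3 each). The log2 difference, db/db minus db/+, was 0.68 ± 0.43 (SE) at a limma adjusted p of 0.89. This is 1.60-fold, with a 95% interval from 0.795-fold to 3.21-fold. The lowest db/db array, at 9.80, lay just above db/+ replicate 2 and below db/+ replicate 3.

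The 3p arm had normalized log2 intensities of 8.12, 8.26 and 9.65 in db/db cells, against 6.79, 8.54 and 7.93 in db/+ cells. It averaged 8.68 ± 0.85 in db/db and 7.76 ± 0.89 in db/+ cells (SD, n = 3 each). The log2 difference was 0.92 ± 0.55 (SE) at a limma adjusted p of 0.89. This is 1.90-fold, with a 95% interval from 0.771-fold to 4.66-fold. Here db/+ replicate 2 lay above db/db replicates 1 and 2.

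Neither arm passed, and neither did any other probe: of 1181 tested, 0 passed, or 0% (limma, Benjamini-Hochberg), while 59 had an unadjusted p under 0.05. The unadjusted limma p was 0.16 for the 5p arm and 0.14 for the 3p arm. The intervals of both arms run from a modest decrease to a more than 3-fold increase, so no difference was detectable at this number of arrays. Both arms varied more than most probes: 97.4% of the tested probes had a smaller standard error than the 5p arm and 99.2% a smaller one than the 3p arm. The log2 difference of the 5p arm was reached or exceeded by 25 tested probes, or 2.12%, both miR-142a arms included. That count covers increases only, and decreases of that size were not counted. Because these are bulk samples, a change in the share of miR-142a-positive cells and a change in miR-142a per cell cannot be told apart.

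**Figure D2:**
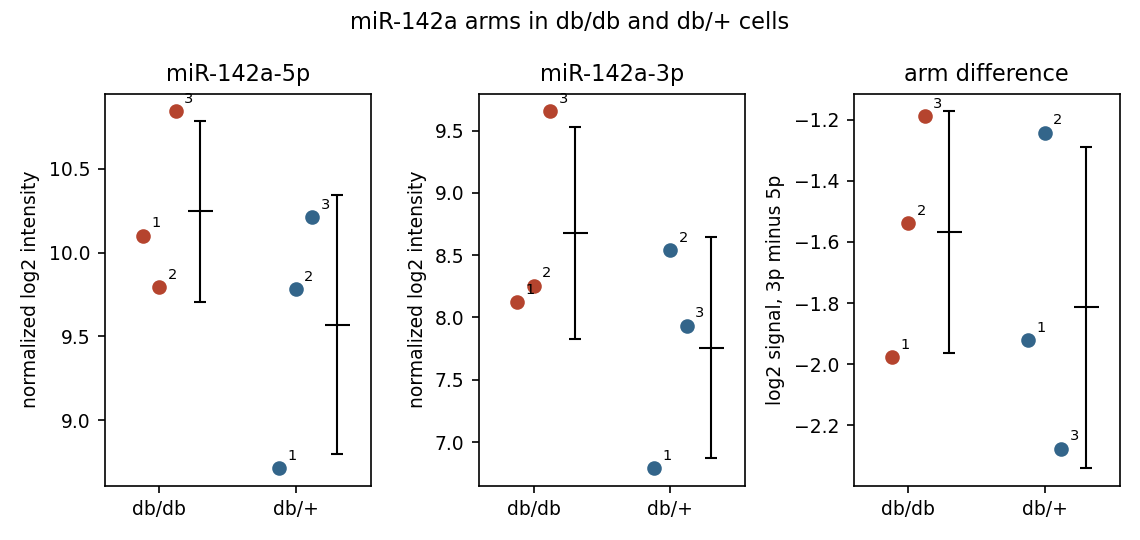
Normalized log2 intensity of miR-142a-5p and miR-142a-3p and the log2 difference between the arms, for the db/db and db/+ arrays (points, numbered by replicate; bar and whiskers, mean ± SD, n = 3). The groups overlap in all panels, with db/db replicate 3 highest and db/+ replicate 1 lowest for both arms.

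**Figure D3:**
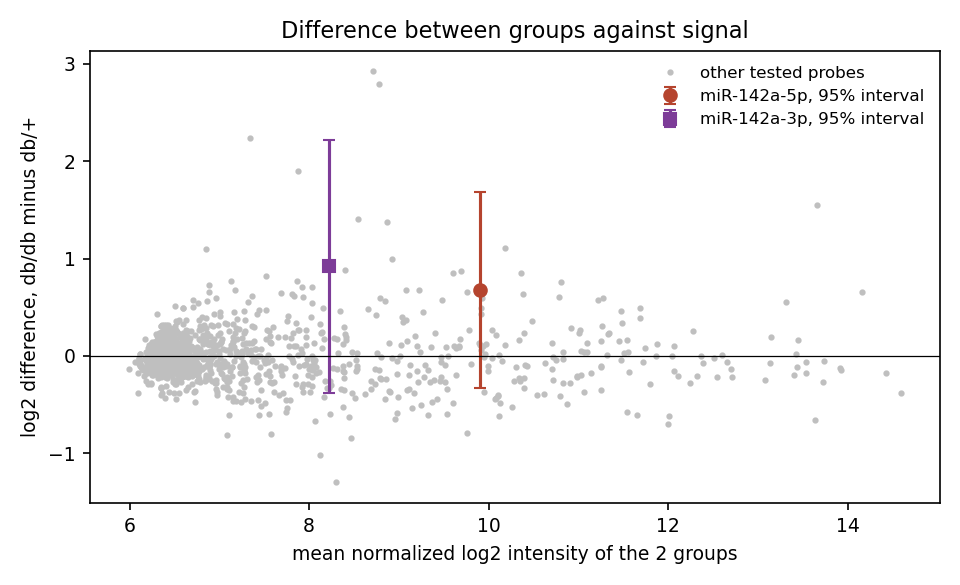
Log2 difference, db/db minus db/+, against the mean normalized log2 intensity for the 1181 tested probes, with the 95% intervals of both miR-142a arms. Both intervals include 0, around 0.68 for the 5p arm and 0.92 for the 3p arm.

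Both differences were smaller without either of the arrays at the ends. Without db/+ replicate 1 the log2 difference was 0.25 for the 5p arm and 0.44 for the 3p arm, and without db/db replicate 3 it was 0.38 and 0.42. Without db/+ replicate 3 that of the 5p arm was 1.00. It stayed above 0 for both arms whichever array was left out, and the limma adjusted p lay between 0.59 and 1.00 in all alternatives. With the blank median subtracted the log2 difference of the 3p arm was 1.42, a setting without the offset of 50, which compresses the log2 differences of dim probes. The arrays also split by the spike-in control PUC2PM-20B, which was bright on db/db replicate 2 and db/+ replicates 1 and 2. With that split as a block the log2 difference of the 5p arm was 0.40 and that of the 3p arm 0.77. Within the bright set the log2 difference was 0.55 for the 5p arm and 0.59 for the 3p arm, and within the dim set it was 0.26 and 0.95. Each set has an arm of 1 array.

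In the authors' deposited table, which was background-subtracted and scaled in a way that the sources used here do not give, the 5p arm had values of 1087, 788 and 1883 in db/db cells and 337, 865 and 1136 in db/+ cells. In the authors' deposited table the 3p arm had 212, 234 and 781 in db/db cells and 42.8, 315 and 165 in db/+ cells. The same arrays were at the ends there, and the groups overlapped for both arms.

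The ratio of the arms was examined next. A probe's brightness depends on how well it binds and on how its target is labelled, so the ratio of signals does not give the ratio of arm molecules, and only its change between arrays can be read. The normalized 5p signal was 3.94, 2.91 and 2.28 times the 3p signal on the db/db arrays, against 3.79, 2.37 and 4.85 times on the db/+ arrays. On the log2 scale, 3p minus 5p averaged -1.57 ± 0.40 in db/db and -1.81 ± 0.53 in db/+ cells (SD, n = 3 each). The difference between the groups was 0.25 ± 0.38 (SE), and the exact two-sided permutation p was 0.50 where 3 against 3 arrays cannot go below 0.10. That difference was 0.05 without db/db replicate 3, 0.07 without db/+ replicate 3 and 0.51 without db/+ replicate 2. It was 0.67 with the blank median subtracted and 0.61 in the authors' deposited table, and the exact permutation p was at least 0.30 under each alternative run. The db/+ arrays held both the highest ratio, on replicate 3, and the second lowest, on replicate 2.

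Across the 6 arrays the arms gave a Pearson r of 0.89 (exact permutation p = 0.067) and a Spearman rho of 0.43 (exact permutation p = 0.42). This was the only relation tested, and both values come from the same arrays. Without db/db replicate 3 and db/+ replicate 1, the 2 arrays farthest from the 5p median, r was -0.89 over 4 arrays. The parallel course of the arms therefore rests on those 2 arrays.

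Markers of other lineages were read to place the miR-142a signal in the labelled cell type. Of 26 haematopoietic marker probes, both miR-142a arms included, 12 were detected on all 6 arrays. For endothelial, stromal, epithelial and other tissue markers it was 9 of 40 probes. By list these were 7 of 11 stromal, 1 of 2 endothelial, 0 of 12 epithelial and 1 of 15 other tissue probes. Over all probes 35.3% were detected on all 6 arrays. Above 2 times the blank median the counts were 8 of 26 and 8 of 40, with 17.3% over all probes. The counts cover arms that are usually degraded as well as those that are usually kept. Detection on only a few arrays counts for little, since the rule passed most probes on db/db replicate 1 and db/+ replicate 3.

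Among myeloid markers miR-223-3p, the principal miRNA of granulocytes and monocytes, read 223, 255 and 179 times the blanks in db/db cells and 96.1, 282 and 110 times in db/+ cells. MiR-511-3p, encoded within the macrophage mannose receptor gene, read between 2.53 and 5.86 times the blanks over all arrays, and miR-146a-5p, induced by NF-κB, between 4.28 and 7.69 times. Among lymphoid-linked markers miR-342-3p read between 28.0 and 65.1 times and miR-181a-5p between 23.2 and 42.1 times. All of these probes were detected beside miR-142a on every array. MiR-150, a miRNA of mature lymphocytes, read lower: its 3p arm lay between 1.19 and 2.25 times the blanks, and its 5p arm, named after its values were seen, lay between 0.698 and 1.29 times and was detected on 3 arrays. Of the 10 lymphoid-linked probes 4 were detected on all 6 arrays.

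Probes for markers of other lineages also read above the blanks. The endothelial marker miR-126a-3p read between 15.6 and 35.7 times the blanks, while its opposite arm miR-126a-5p was detected on 1 array. The stromal markers miR-199a-3p and miR-214-3p, which can come from a shared primary transcript antisense to Dnm3, read between 30.7 and 113 times and between 26.8 and 85.9 times. No epithelial marker probe was detected on all 6 arrays, 0 of 12, and the highest reading among them on any array was 2.13 times, for miR-200b-5p. Probes from the blood, endothelial and stromal lists thus read above the blanks in the same samples, and probe signals alone do not say which cells gave them.

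**Figure D4:**
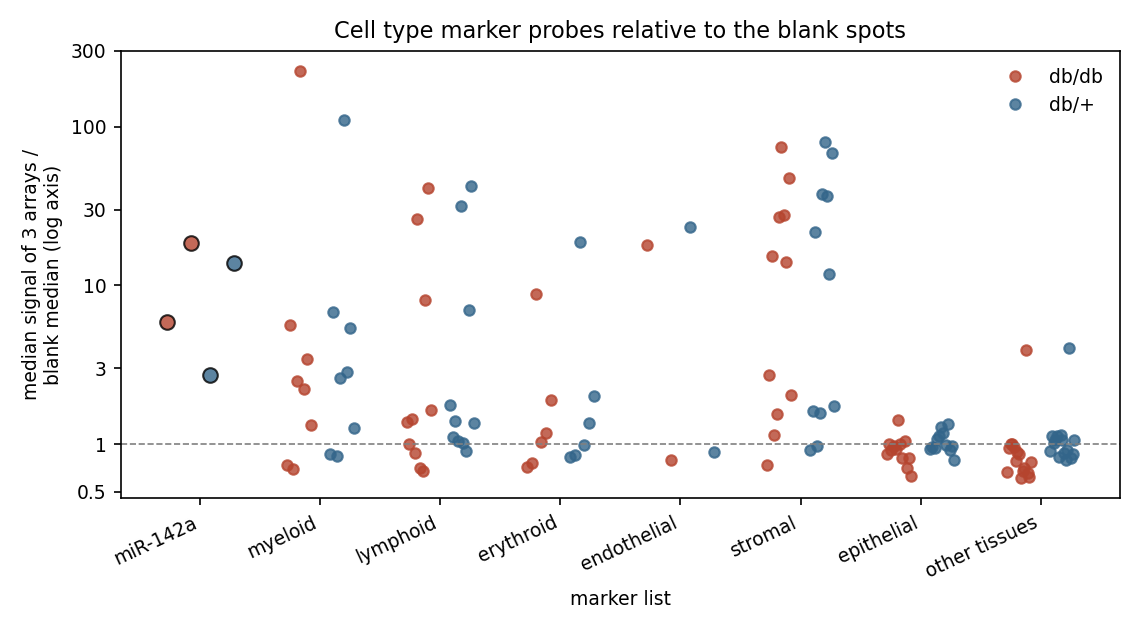
Signal of each marker probe relative to the blank median of its array, as the median of 3 arrays, for db/db (left in each list) and db/+ (right), with miR-142a outlined (log axis). The miR-142a arms, miR-223-3p, miR-342-3p, miR-126a-3p and miR-199a-3p lie above the blanks, and the 12 epithelial probes lie near 1.

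Between the groups the 2 miR-142a probes both had a log2 difference above 0, as did 45.6% of all tested probes. The median of the 2 was 0.80, and that of all tested probes was -0.02. The 2 arms come from the same hairpin and are not separate observations. Of the 6 tested myeloid probes 1 was above 0 and 5 below, with a median log2 difference of -0.44. The one above 0 was miR-223-3p, at 0.56 ± 0.33 (SE). MiR-511-3p had -0.66, miR-223-5p had -0.44 and miR-146a-5p had -0.43. For these 3 probes the groups did not overlap, as they did not for 9.65% of all tested probes, and none passed, with a limma adjusted p of 0.89 each. MiR-142a and miR-223-3p thus had the opposite sign to the other myeloid markers named, and the difference between them was not tested.

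The lymphoid list had a median log2 difference of -0.11 over 7 tested probes, 1 above 0 and 6 below, and the erythroid list -0.13 over 3. The stromal list had -0.24 over 10 tested probes, 3 above 0 and 7 below, and 0 of the 10 passed. Its log2 differences ran from -0.70 to 0.56, with miR-199a-3p at -0.70 and miR-214-3p at -0.61. Of its 11 probes 7 were detected on all 6 arrays. Their summed normalized intensity, over all 11, lay between 8371 and 13710 on the db/db arrays and between 14026 and 17516 on the db/+ arrays. It was 13298, 13710 and 8371 on db/db replicates 1 to 3 and 17481, 14026 and 17516 on db/+ replicates 1 to 3. The lowest sum was on db/db replicate 3, where both miR-142a arms were highest. The sums on db/+ replicates 1 and 3 were the highest and nearly equal. After normalization both arms were lowest on db/+ replicate 1. On db/+ replicate 3 the normalized 5p arm was second highest and the normalized 3p arm second lowest. The part of stromal signal in the miR-142a readings was not tested. The stromal list was the only marker list whose sums did not overlap between the groups, and this separation was not tested. Taken singly, 1 of its 10 tested probes had groups that did not overlap, against 9.65% of all tested probes. The myeloid sums, for example, lay between 12223 and 16080 on the db/db arrays and between 7022 and 15191 on the db/+ arrays. A linear sum weighs the brightest probes most, here miR-199a-3p and miR-214-3p. The endothelial probe miR-126a-3p had a log2 difference of -0.33 ± 0.25 (SE).

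The array profiles show where these readings ran together. As log2 deviation from its own mean, miR-142a-3p was at -0.09, 0.04 and 1.44 on the db/db arrays and at -1.42, 0.32 and -0.28 on the db/+ arrays. MiR-223-3p was at 0.14, 0.12 and 0.58 on the db/db arrays and at -0.86, 0.46 and -0.44 on the db/+ arrays. MiR-199a-3p was at 0.12, -0.18 and -0.98 on the db/db arrays and at 0.80, 0.04 and 0.21 on the db/+ arrays. The array lowest in miR-142a-3p and miR-223-3p was the highest in miR-199a-3p, and db/db replicate 3 had the reverse order. Other markers of the same lists had other courses: miR-511-3p was at -0.47, 0.06 and -0.58 on the db/db arrays and at 0.30, 0.19 and 0.50 on the db/+ arrays. On db/+ replicate 1 the stromal miR-214-3p was at 0.28. There the stromal miR-199b-5p and miR-10b-5p, named after their values were seen, were at -0.69 and -0.49. Without db/db replicate 3 and db/+ replicate 1, miR-199a-3p had an r of -0.49 with the 3p arm and 0.82 with the 5p arm. For miR-223-3p these were 0.93 and -0.80.

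The probes most like each arm were ranked by Pearson r over the 6 arrays, among probes detected on all of them whose SD was at least 0.5 times that of the arm. For the 5p arm these were miR-15a-5p at 0.99, miR-29c-3p at 0.96, miR-29b-3p at 0.96, miR-3963 at 0.95 and miR-19a-3p at 0.92, out of 234 probes. For the 3p arm they were miR-29b-3p at 0.98, miR-6540-5p at 0.97, miR-29a-5p at 0.97, miR-466c-5p at 0.96 and miR-1195 at 0.96, out of 125 probes. They are the top of long rankings over few arrays, and 15.2% of the 125 probes had an r over 0.9 with the 3p arm, against 2.56% of the 234 with the 5p arm. The r of these probes was also read over 4 arrays, without db/db replicate 3 and db/+ replicate 1. With the 5p arm it was 0.90 for miR-15a-5p, 0.95 for miR-29c-3p, -0.19 for miR-29b-3p, 0.27 for miR-3963 and 0.89 for miR-19a-3p. With the 3p arm it was 0.97 for miR-466c-5p, 0.90 for miR-6540-5p and 0.68 for miR-29a-5p. For miR-29b-3p and miR-1195 it was 0.60 each with the 3p arm.

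The mature sequences of the 3 probes nearest to the 5p arm, of which miR-29b-3p is also the nearest to the 3p arm, are shown to compare their base composition, with the seeds in capitals.
mmu-miR-15a-5p: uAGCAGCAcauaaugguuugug
mmu-miR-29c-3p: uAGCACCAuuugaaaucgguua
mmu-miR-29b-3p: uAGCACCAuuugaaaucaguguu

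MiR-29b-3p and miR-29c-3p share a seed with each other and none of the 3 shares one with either miR-142a arm. Their G and C content was 40.9% for miR-15a-5p, 36.4% for miR-29c-3p and 34.8% for miR-29b-3p, below the median of the tested probes. The other near probes were not all poor in G and C, with 34.8% for miR-19a-3p, 36.4% for miR-29a-5p, 37.5% for miR-466c-5p, 47.4% for miR-3963, 54.5% for miR-6540-5p and 60.9% for miR-1195. Base composition was also read over all 40 other probes with at most 35% G and C that were detected on all arrays. Their median log2 deviation was -0.14, 0.17 and 0.07 on the db/db arrays and 0.02, 0.20 and -0.38 on the db/+ arrays. On db/+ replicate 1, where the 5p arm was at -1.19 and the 3p arm at -1.42, the median of these probes was 0.02. With each array centred on the median of these probes, the log2 difference between the groups was 0.45 for the 5p arm and 0.69 for the 3p arm.

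**Figure D5:**
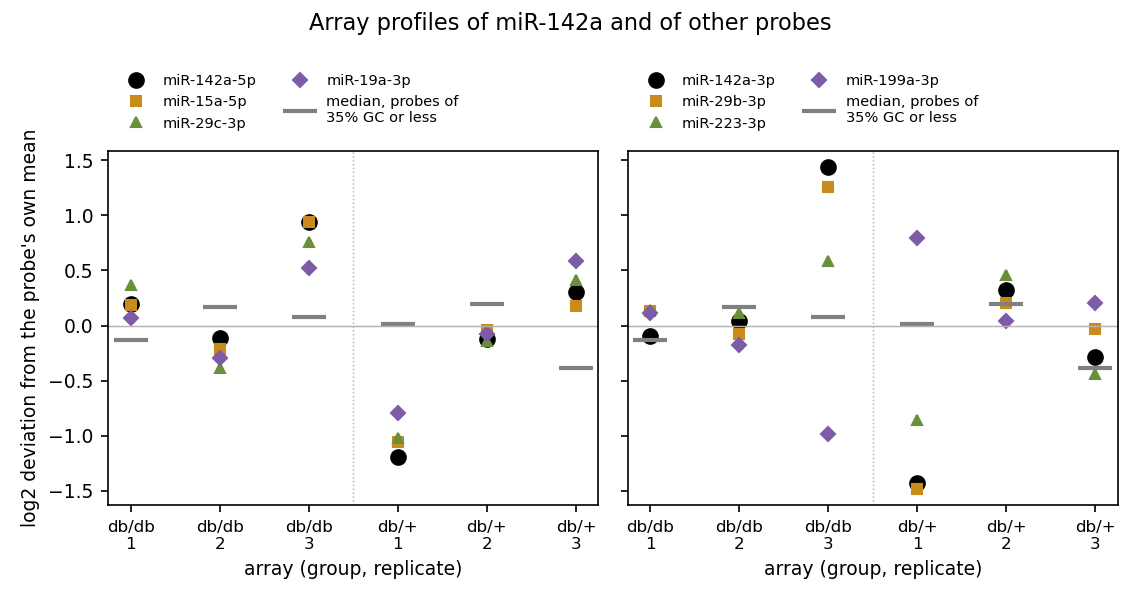
Log2 deviation from the probe's own mean on each array for miR-142a-5p (left) and miR-142a-3p (right), with probes of similar or opposite course and the median of 40 other probes with at most 35% G and C (grey bars). On db/db replicate 3 and db/+ replicate 1 the miR-142a arms lie between 0.93 and 1.44 above and between 1.19 and 1.42 below their means, and the grey bars lie near 0.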

How the data were processed

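Bone marrow cells of db/db and db/+ mice were compared on 6 one-colour Cy5 miRNA arrays, made by a service provider from 1 µg total RNA each, per the labels' protocols. The authors deposited scanner files with a median intensity per spot and no background column, per the file headers. Their value table, a linear intensity per probe with an unstated background subtraction and scaling, was an alternative.

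Spots were corrected with normexp (offset 50). The mouse miRNA spots were then quantile-normalized as log2 values, and each probe was given the mean of its 2 spots. Probes detected on at least 3 of 6 arrays were tested with limma 3.58.1 (R 4.3.3) and Benjamini-Hochberg adjustment at 0.05. The arm difference was compared with an exact permutation test. The named probes were both arms, miR-142b, at most the 2 brightest and the 2 of smallest p in each marker list, and the 5 most similar probes per arm. Members and lists were chosen with earlier results of these data known. The steps were also run on simulated arrays with known changes. Their noise was drawn separately for each probe, so they lack the courses that probes shared over these arrays. Sequences and coordinates are RefSeq's (GRCm38.p6), and 1610 of 1900 probe targets equalled the RefSeq sequence of that name. Figures used matplotlib 3.10.9 in Python 3.11.15.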

Additional observations from a re-analysis of the deposited data

How the results depend on the processing

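The direction of both arms and their failure to pass held in all 19 alternatives per arm, and the sign of the arm comparison in all 16 of its own. Not every alternative could move an estimate. Another probe filter or the replicate block leaves the log2 difference of each arm as it is. The arm difference is taken within an array, so the replicate block and the centring by base composition leave it as it is. For the same reason 75th percentile scaling and no normalization both gave it as 0.35. Leaving out 1 array at a time gave log2 differences from 0.25 to 1.00 for the 5p arm, from 0.42 to 1.28 for the 3p arm and from 0.047 to 0.51 for the arm difference, and other settings gave 0.40 to 0.78, 0.69 to 1.42 and 0.25 to 0.67. The replicate numbers did not pair the arrays, with correlations of deviations of -0.043, -0.0029 and 0.037. With the replicate number as a balanced block the log2 differences cannot change, and only their spread and p can. They were 0.92 and 0.68 for the 3p and 5p arms, at a limma adjusted p of 0.94 each, and 0.25 for the arm difference. Over all probes the count that passed was 1 with 75th percentile scaling, with offset 16 and over probes detected on all 6 arrays, each time miR-6238. It was between 0 and 3 without 1 array, and without db/db replicate 2 miR-6238, miR-381-5p and miR-665-3p passed. Centring on probes of at most 35% G and C gave 9, and neither arm was among them. These names and that centring, like the spike split, were chosen after seeing the data. Haematopoietic marker probes detected on all arrays numbered 12, between 8 and 12 by other detection rules and between 12 and 17 without 1 array. The 3p arm on db/+ replicate 1, at 1.57 times the blanks, is where the signal over background limits the values most.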

Other observations

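Erythroid miR-451a, abundant in red blood cells, read 16.1, 8.85 and 5.50 times the blank median on the db/db arrays and 3.99, 18.6 and 25.8 times on the db/+ arrays. Its order over the arrays differed from that of miR-142a: it was highest on db/+ replicate 3, and the array lowest in miR-142a was also lowest in miR-451a. Of the 5 other erythroid probes 1, miR-486b-3p, was detected on all 6 arrays, at 1.53 to 2.67 times the blanks. MiR-144-3p and miR-144-5p, which share a cluster with miR-451a and are named after their values were seen, read at most 1.15 and 1.18 times the blanks and were detected on 1 and 2 arrays. The muscle marker miR-206-3p read above the blanks on every array, at 3.92, 6.95 and 3.14 times the blank median in db/db cells and 6.61, 4.03 and 2.83 times in db/+ cells. The other 14 probes for liver, muscle, neuron and pancreas markers were not detected on all 6 arrays.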
